A study of Homo sapiens with 4 samples.

Results

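A group of 40 genes of DNA replication licensing and synthesis was followed in the human liver cancer line PLC8024 after treatment with an unnamed drug. The genes were picked by role, by a rule that used no values, although earlier results of these data were known. Of the 40 names, 39 had a row among the 26603 genes of the deposited table, and the remaining name, E2F2, was not analysed here. Polyadenylated RNA was sequenced in 2 libraries labelled drug and 2 libraries labelled control. All 4 came from the same line, and the labels give no difference between the groups other than the drug, with neither its name, dose and duration nor the vehicle of the control. Whether the libraries of a group were separate cultures is not stated, and the p-values therefore reflect only how these libraries vary, which may be technical. The comparison sets drug against control, and the question here is how transcripts of the replication machinery differed.

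DNA replication starts at origins that are licensed before S phase. The origin recognition complex, with CDC6 and CDT1, loads the ring-shaped MCM2-7 helicase onto DNA in an inactive form. In S phase, CDC45 and the GINS complex join MCM2-7 to form the active helicase, and polymerases alpha, delta and epsilon copy the unwound strands with the sliding clamp PCNA, its loader RFC and a supply of deoxynucleotides. Many of these genes are transcribed around the start of S phase under E2F factors, and in liver tumours, as in other dividing cells, their transcripts are used as signs of proliferation.

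Recovered gene reads totalled 40279560 and 38685856 in drug libraries 1 and 2, and 28526098 and 38611635 in control libraries 1 and 2. Log2 levels correlated across genes at 0.992 between the drug libraries and 0.993 between the control libraries, against 0.986 to 0.987 between groups. The liver cell genes TF, HNF4A and FGB and the epithelial genes KRT8, KRT18 and CDH1 were expressed in every library. With drug, limma called HNF4A, KRT8 and KRT18 higher and TF, FGB and CDH1 lower. Of the same liver list, limma also called ALB and APOA1 lower, and SERPINA1 did not pass. APOA1 had 14.29 and 15.35 FPKM with drug and 17.5 and 17.13 FPKM in control. SERPINA1 had 11.04 and 9.68 FPKM with drug and 9.93 and 10.57 FPKM in control. FGB had 295 and 274 FPKM with drug and 556 and 549 FPKM in control. Of the liver tumour and progenitor markers, GPC3 had 82.7 and 77.7 FPKM with drug and 108 and 110 FPKM in control. The others were low, with AFP at most 0.449, EPCAM at most 0.317 and KRT19 at most 1.43 FPKM. Some defining liver genes were absent or scarce: TTR, the transthyretin gene, was at or near 0, APOB reached at most 0.0384 FPKM, and ALB, the albumin gene, had 1.31 and 1.32 FPKM in the drug libraries, against 3.15 and 3.23 FPKM in the control libraries. Of 8 listed markers of other cell types, PTPRC, CD68 and ACTA2 were not analysed here, and VWF, DES, COL1A1 and COL1A2, of endothelium, muscle and fibroblasts, reached at most 0.0891 FPKM. PECAM1, an endothelial adhesion molecule, had 2.09 and 2.23 FPKM in the drug libraries, against 4.66 and 4.11 FPKM in the control libraries, and its part in the results was not tested. In such bulk libraries fewer cells of a type and less RNA per cell cannot be told apart.

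Most replication genes differed little between drug and control cells. In a test across 11227 genes, RRM2 and TYMS, which supply DNA precursors, were higher with drug, and MCM3, a subunit of the replicative helicase, was lower. The remaining 36 members did not pass, although most of them had slightly higher levels with drug. RRM2, the member that differed most, had 1.29 times the control mean with drug.

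Levels are given as FPKM, read numbers scaled for the exon length of the gene and the total of the library. Log2 fold changes set drug over control on the log2(FPKM + 1) scale, which understates changes of low genes, and a gene passed at a limma adjusted p under 0.05. All 39 members in the table exceeded the minimum of a mean of 1 FPKM in a group, and each had 410 to 19475 reads in a library. By limma, 2 of the 39 were higher (5.13%), against 7.78% of all genes tested, and 1 was lower (2.56%), against 6.02% of all genes tested. Neither share of members exceeded that of all genes. Their median log2 fold change was 0.093, with 34 members above 0 and 5 below, and the median of all genes tested was 0.036. With TMM scaling these medians were 0.054 for members and 0.002 for all genes, and with edgeR or DESeq2 they were 0.056 and 0.002. With TMM scaling of FPKM, edgeR or DESeq2, 31 of 39 members were above 0 and with median scaling 32 were. Over all genes, 56.4% of the limma calls were higher with drug, against 39.2% with TMM scaling, 42.4% with median scaling, 43.3% with edgeR and 41.1% with DESeq2.

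Both drug libraries lay above both control libraries for 28 members (71.8%), against 40.3% of all genes tested. Only MCM3 had both drug libraries below both controls (2.56% of members, against 23.3% of all genes tested), and the groups overlapped for the other 10. At an unadjusted limma p under 0.05, 16 members were higher (41.0%, against 21.0% of all genes tested) and 1 was lower (2.56%, against 12.1%). These shares come from FPKM without further scaling and were not counted with TMM or median scaling. TMM scaling lowered the member median from 0.093 to 0.054 and that of all genes from 0.036 to 0.002. Small gaps between the groups may therefore depend on the scaling. For the 36 members that did not pass, every 95% interval of the log2 fold change lay between -0.17 and 0.40.

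**Figure D1:**
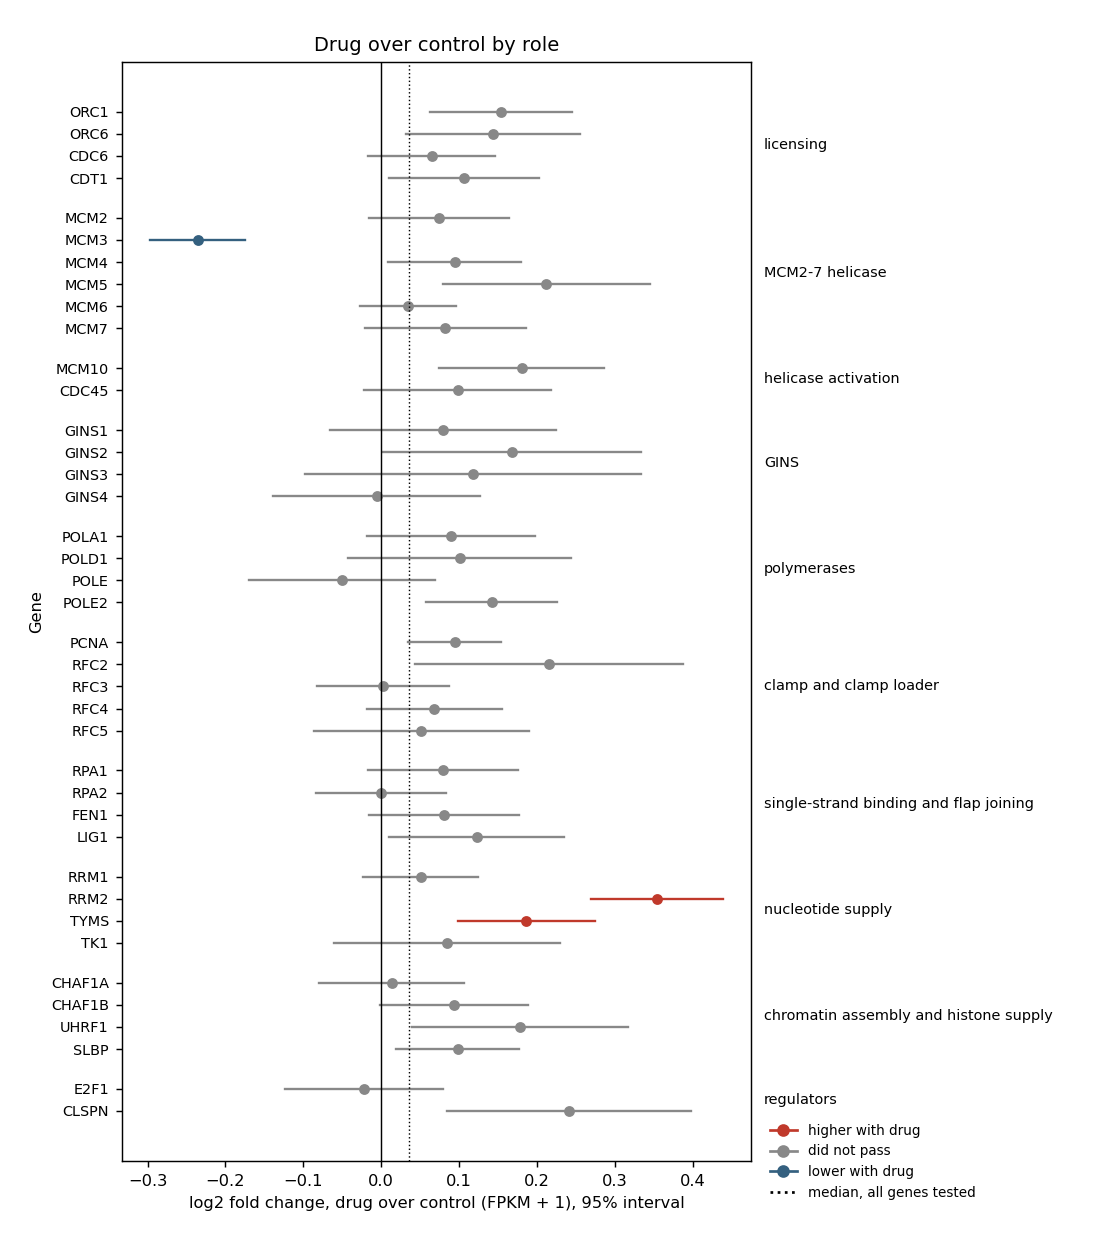
Log2 fold change of drug over control on the FPKM + 1 scale (x axis) for the 39 replication genes, ordered by role (y axis), from limma with 2 drug and 2 control libraries; points are estimates, bars are 95% intervals, and the dotted line is the median of all genes tested, 0.036. RRM2 at 0.35 and TYMS at 0.19 passed as higher, MCM3 at -0.24 passed as lower, and the other intervals lie between -0.17 and 0.40.

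Counting tools gave partly different calls on reads recovered from the same table. EdgeR called 4 members higher, RRM2, MCM5, MCM10 and CLSPN (10.3%, against 8.37% of all genes tested), and 1 lower, MCM3 (2.56%, against 11.0%). DESeq2 called RRM2, MCM5 and CLSPN higher (7.69%, against 6.89%) and MCM3 lower (2.56%, against 9.88%). In the authors' deposited table, RRM2, MCM5 and CLSPN were higher at an adjusted p under 0.05 (7.69% of members, against 3.18% of its 26603 genes) and MCM3 was lower (2.56%, against 4.03%). Those 26603 genes include genes below the minimum of 1 FPKM, which all members exceeded. These shares therefore cannot be set beside those over the 11227 genes tested. RRM2 and MCM3 were thus called by every tool, whereas TYMS passed with limma but not with edgeR (adjusted p = 0.068) or DESeq2 (adjusted p = 0.211).

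The MCM2-7 genes encode the subunits of the replicative helicase. MCM3 fell, while the log2 fold changes of the others were above 0 with limma on FPKM, that of MCM6 being below 0 with TMM scaling, edgeR and DESeq2. MCM3 (chr6:52264009-52284881, minus strand, GRCh38) had 118 and 118 FPKM in the drug libraries, against 140.5 and 138 FPKM in the control libraries. Its drug libraries were close together and below both controls, with means of 118 ± 0.2 and 139.5 ± 1.52 FPKM (SD, n = 2 each). MCM3 fell by 0.24 on the log2 scale (SE 0.024, limma adjusted p = 0.00787), and the call was lost without control replicate 1 (limma adjusted p = 0.0529) and kept without any other single library. Across all 12 alternatives its log2 fold change stayed between -0.28 and -0.22. In the authors' deposited table the log2 fold change of MCM3 was -0.27, with an adjusted p of 2.55e-17.

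MCM5 showed the largest difference in the other direction within the helicase. It had 12.3 and 13.4 FPKM in the drug libraries, against 10.7 and 11.2 FPKM in the control libraries, and its lowest drug library was above its highest control library. With limma MCM5 did not pass (log2 fold change 0.21, 95% interval 0.079 to 0.34, adjusted p = 0.0592), while edgeR (adjusted p = 0.0179) and DESeq2 (adjusted p = 0.0156) called it higher. In the authors' deposited table MCM5 had a log2 fold change of 0.19 and an adjusted p of 0.00613.

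The other helicase genes differed by less than MCM3 and MCM5. MCM2 had 18.8 and 19.1 FPKM in the drug libraries, against 17.6 and 18.4 FPKM in the control libraries. MCM4 had 30.8 and 32 FPKM in the drug libraries, against 29 and 29.7 FPKM in the control libraries. MCM7, whose introns hold the MIR25 and MIR106B microRNA genes, had 60.5 and 62 FPKM in the drug libraries, against 55.9 and 59.8 FPKM in the control libraries. In all of these the drug libraries were above the controls by a small margin, and none passed with limma (log2 fold changes 0.074 for MCM2, 0.094 for MCM4 and 0.082 for MCM7). MCM6 had 59.9 and 59.8 FPKM in the drug libraries, against 58.5 and 58.4 FPKM in the control libraries, a difference whose direction depended on the scaling: its log2 fold change was 0.035 with limma on FPKM and -0.0056 with TMM scaling or edgeR.

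With MCM3 lower, its weight within the helicase transcripts differed. MCM3 made up 39.3% and 38.9% of the summed FPKM of MCM2-7 in the drug libraries, against 45.0% and 43.8% in the control libraries. The other subunits together had 182 and 186 FPKM in the drug libraries, against 172 and 178 FPKM in the control libraries. The ratio of MCM3 to MCM5 was 9.58 and 8.84 in the drug libraries, against 13.2 and 12.3 in the control libraries, and the ratio of MCM3 to MCM7 was 1.95 and 1.91 against 2.52 and 2.31. None of these ratios overlapped between the groups. They were not tested, and they show unequal change, not which gene changed.

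**Figure D2:**
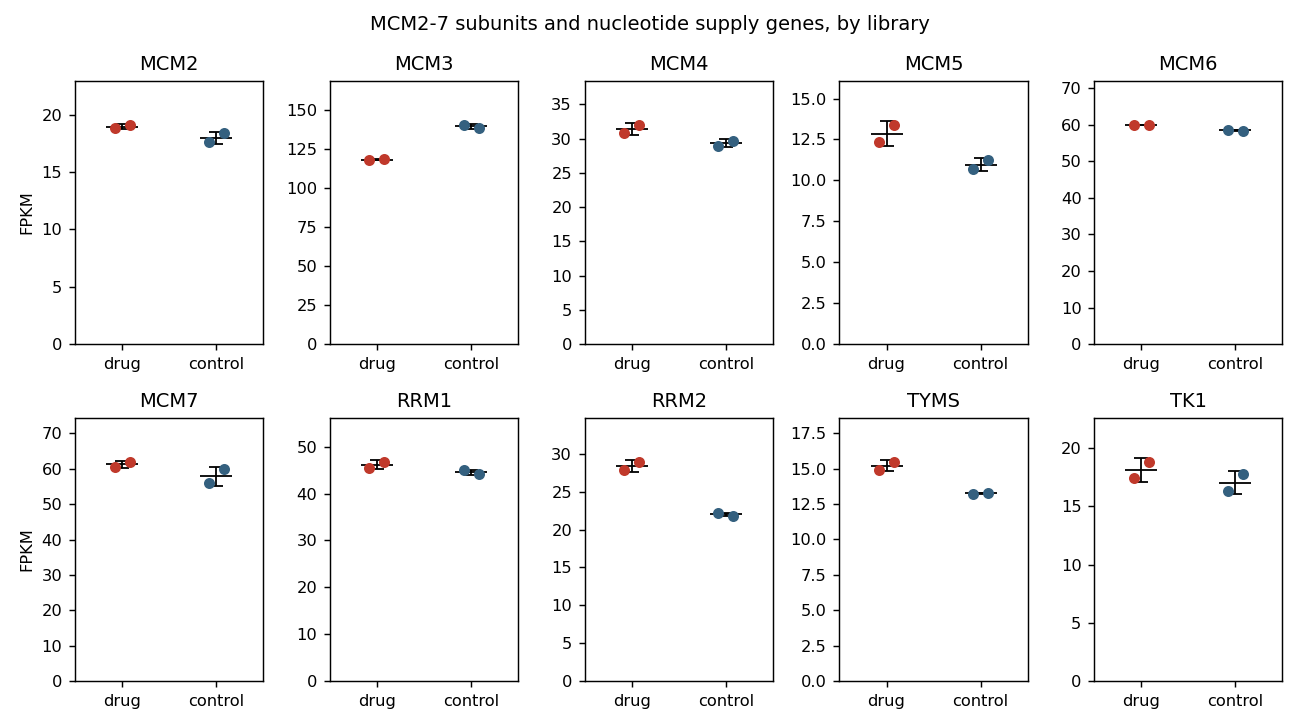
FPKM (y axis, from 0, a scale for each gene) of the MCM2-7 and nucleotide supply genes in the 2 drug and 2 control libraries (x axis); points are libraries, the horizontal line is the mean and the bars are the SD (n = 2). MCM3 had 118 and 118 FPKM with drug, below both controls, and RRM2 had 27.8 and 29 FPKM with drug, above both controls, while TK1 overlapped between the groups.

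Of the licensing genes, 0 of 4 passed with limma, 3 had an unadjusted p under 0.05, all higher, and edgeR and DESeq2 called none. Here and for the roles below, 21.0% of all genes tested were higher at that unadjusted p, and 7.78% passed limma as higher. ORC1 and ORC6 encode subunits of the origin recognition complex. ORC1 had 16.7 and 16.2 FPKM in the drug libraries, against 14.4 and 14.9 FPKM in the control libraries, and ORC6 had 11 and 11.7 FPKM in the drug libraries, against 10.3 and 10.04 FPKM in the control libraries. Both were above control in every drug library, with log2 fold changes of 0.15 (limma adjusted p = 0.0515) and 0.14 (limma adjusted p = 0.0912). With TMM scaling these were 0.12 (limma adjusted p = 0.113) and 0.11 (limma adjusted p = 0.152). DESeq2 gave an adjusted p of 0.289 for ORC1 and 0.331 for ORC6. CDC6 and CDT1, which bring MCM2-7 to the origin, differed less: CDC6 had 25.4 and 25.1 FPKM with drug and 23.7 and 24.6 FPKM in control, and CDT1 had 12 and 11.9 FPKM with drug and 10.8 and 11.3 FPKM in control.

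Helicase activation was represented by MCM10, a scaffold needed for the helicase to fire, and CDC45, which enters the active helicase. MCM10 had 15.1 and 14.2 FPKM in the drug libraries, against 12.6 and 13 FPKM in the control libraries. Its groups did not overlap, it missed the threshold with limma (log2 fold change 0.18, 95% interval 0.074 to 0.29, adjusted p = 0.0512), and edgeR called it higher (adjusted p = 0.033) but DESeq2 did not (adjusted p = 0.0835). CDC45 had 10.4 and 9.8 FPKM in the drug libraries, against 9.62 and 9.09 FPKM in the control libraries, and it did not pass with any of these tools.

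The GINS genes encode the complex that joins CDC45 and MCM2-7, and none of the 4 passed with limma, edgeR or DESeq2. GINS2 had 7.26 and 8.17 FPKM in the drug libraries, against 6.96 and 6.54 FPKM in the control libraries, and it was the GINS gene whose groups did not overlap and the one with an unadjusted p under 0.05. GINS1 had 7.31 and 7.59 FPKM in the drug libraries, against 7.36 and 6.65 FPKM in the control libraries. GINS3, the lowest member of the whole set, had 3.15 and 3.59 FPKM in the drug libraries, against 2.81 and 3.25 FPKM in the control libraries. Its spread within each group was about as large as the difference between the groups. GINS4 had 6.85 and 7.45 FPKM in the drug libraries, against 7.31 and 7.06 FPKM in the control libraries. The widest 95% intervals of the log2 fold change among these were those of GINS3 (-0.10 to 0.33) and GINS2 (0.0026 to 0.33).

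Of the 4 polymerase genes none passed with limma, edgeR or DESeq2, and 1 had an unadjusted limma p under 0.05. That gene was POLE2, an accessory subunit of polymerase epsilon, with 12 and 12.1 FPKM in the drug libraries, against 10.8 and 10.8 FPKM in the control libraries (limma adjusted p = 0.0514). POLE2 had an adjusted p of 0.102 with limma after TMM scaling, 0.173 with edgeR and 0.425 with DESeq2. Its catalytic partner POLE, which copies the leading strand, had 8.55 and 9.13 FPKM in the drug libraries, against 9.38 and 9 FPKM in the control libraries. The ratio of POLE to POLE2 was 0.715 and 0.754 in the drug libraries, against 0.865 and 0.835 in the control libraries, without overlap and without a test. POLA1, the catalytic subunit of the polymerase that makes primers, had 7.91 and 7.5 FPKM in the drug libraries, against 7.15 and 7.2 FPKM in the control libraries. POLD1, which copies the lagging strand, had 7.54 and 8.25 FPKM in the drug libraries, against 7.5 and 7.09 FPKM in the control libraries. Both were slightly above control, with log2 fold changes of 0.09 for POLA1 and 0.10 for POLD1.

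PCNA, the ring that holds polymerases on DNA, was the most abundant member with drug. It had 138 and 137 FPKM in the drug libraries, against 128 and 129 FPKM in the control libraries. This small but even difference missed the threshold (log2 fold change 0.094, 95% interval 0.035 to 0.15, limma adjusted p = 0.0599). With TMM scaling the log2 fold change of PCNA was 0.054 (limma adjusted p = 0.236). Its adjusted p was 0.351 with edgeR and 0.463 with DESeq2. RFC2 to RFC5 encode small subunits of the loader that opens PCNA. RFC2 had 23.7 and 23.9 FPKM in the drug libraries, against 19 and 21.9 FPKM in the control libraries, so most of its spread lay between the controls. RFC2 did not pass (log2 fold change 0.22, 95% interval 0.044 to 0.39, limma adjusted p = 0.0967), except without control replicate 2 (limma adjusted p = 0.0466). RFC3 had 35.7 and 37.4 FPKM in the drug libraries, against 36.2 and 36.7 FPKM in the control libraries, with no difference in mean beyond the spread, and its direction changed with the scaling. RFC4 had 22.3 and 21.8 FPKM in the drug libraries, against 21.4 and 20.6 FPKM in the control libraries. RFC5 had 19.8 and 18.9 FPKM in the drug libraries, against 19.6 and 17.8 FPKM in the control libraries. For the clamp and its loader together, 0 of 5 genes passed with limma, edgeR or DESeq2, and 2 had an unadjusted limma p under 0.05, both higher.

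The genes of single-strand binding and of joining lagging-strand fragments also stayed near control. RPA1 and RPA2 encode subunits of the protein that coats single-stranded DNA. RPA1 had 28.9 and 27.4 FPKM with drug and 26.2 and 27 FPKM in control, and RPA2 had 34 and 32.5 FPKM with drug and 33.5 and 33.1 FPKM in control. FEN1, the nuclease that trims flaps, had 44.3 and 46.9 FPKM with drug and 42.4 and 43.7 FPKM in control. LIG1, the ligase that seals the fragments, had 4.97 and 5.11 FPKM with drug and 4.55 and 4.54 FPKM in control. None of these 4 genes passed with limma, edgeR or DESeq2, and LIG1 had an unadjusted limma p under 0.05. RPA2 had a mean of 33.3 FPKM with drug and 33.3 FPKM in control, with a 95% interval of the log2 fold change of -0.084 to 0.083.

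In nucleotide supply, 2 of 4 genes passed with limma, RRM2 and TYMS, and edgeR and DESeq2 called 1, RRM2. RRM2 (chr2:10120698-10131419, plus strand, GRCh38) encodes the small subunit of ribonucleotide reductase, the enzyme that makes deoxynucleotides. RRM2 had 27.8 and 29 FPKM in the drug libraries, against 22.2 and 21.9 FPKM in the control libraries. The annotation holds another gene, AC007240.1, on the same strand there, which was not analysed here. The libraries of each group were close together and far from the other group, with means of 28.4 ± 0.822 and 22 ± 0.219 FPKM (SD, n = 2 each). RRM2 rose by 0.35 on the log2 scale (SE 0.033, limma adjusted p = 0.00656). It passed under every one of the 12 alternatives, with adjusted p of 0.0297 to 0.048 when a library was left out with limma. In the authors' deposited table RRM2 had a log2 fold change of 0.33 and an adjusted p of 2.48e-19.

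Its partner RRM1, the large subunit that holds the catalytic site, had 45.5 and 46.8 FPKM in the drug libraries, against 45 and 44.1 FPKM in the control libraries. RRM1 did not pass (log2 fold change 0.051, 95% interval -0.023 to 0.12, limma adjusted p = 0.283). The ratio of RRM2 to RRM1 was therefore higher with drug, 0.611 and 0.619 against 0.493 and 0.495 in the control libraries, a difference that was not tested. TYMS (chr18:657604-673578, plus strand, GRCh38), thymidylate synthase, makes the thymidine nucleotide from the uridine form. TYMS had 14.9 and 15.5 FPKM in the drug libraries, against 13.2 and 13.3 FPKM in the control libraries, with means of 15.2 ± 0.397 and 13.2 ± 0.0469 FPKM (SD, n = 2 each). TYMS rose by 0.19 on the log2 scale (SE 0.034, limma adjusted p = 0.0314), but the call was lost whichever library was left out (limma adjusted p = 0.0802 without drug replicate 1, 0.134 without drug replicate 2, 0.125 without control replicate 1 and 0.109 without control replicate 2). TYMS lies opposite ENOSF1, a gene on the other strand whose level did not pass (7.02 and 7.51 FPKM with drug and 7.12 and 6.98 FPKM in control), and whether the counting kept the strands apart is not given in the sources used here. TK1, the cytosolic thymidine kinase of the salvage route, had 17.4 and 18.9 FPKM in the drug libraries, against 16.4 and 17.8 FPKM in the control libraries, with overlapping groups. Together the nucleotide supply genes summed to 106 and 110.2 FPKM in the drug libraries, against 96.7 and 97.0 FPKM in the control libraries.

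Chromatin assembly and histone supply genes follow the fork and repackage new DNA. UHRF1, which brings maintenance methylation to newly copied DNA, had 12.8 and 14.1 FPKM in the drug libraries, against 11.5 and 12 FPKM in the control libraries. SLBP, which binds the stem-loop of histone messages, had 72 and 69 FPKM in the drug libraries, against 65.4 and 66.2 FPKM in the control libraries. Both were above control without overlap and missed the threshold (limma adjusted p = 0.0916 for UHRF1 and 0.0975 for SLBP). With TMM scaling the limma adjusted p was 0.129 for UHRF1 and 0.328 for SLBP. CHAF1A and CHAF1B, subunits of the chromatin assembly factor that deposits histones at the fork, had log2 fold changes of 0.013 and 0.093, and the sign of CHAF1A changed under TMM scaling, median scaling, edgeR and DESeq2. None of these 4 genes passed with limma, edgeR or DESeq2, and 2 had an unadjusted limma p under 0.05.

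The regulators in the set were E2F1 and CLSPN. E2F1, a transcription factor of S phase genes, had 23.3 and 24.7 FPKM in the drug libraries, against 24 and 24.7 FPKM in the control libraries, with overlapping groups and no difference beyond the spread. CLSPN, claspin, carries the checkpoint signal from stalled forks to the kinase CHEK1. CLSPN had 6.38 and 7.15 FPKM in the drug libraries, against 5.67 and 5.46 FPKM in the control libraries, the second largest log2 fold change of the set. CLSPN missed the threshold with limma (log2 fold change 0.24, 95% interval 0.084 to 0.40, adjusted p = 0.0639) and was called higher by edgeR (adjusted p = 0.0139) and DESeq2 (adjusted p = 0.00784). In the authors' deposited table CLSPN had a log2 fold change of 0.25 and an adjusted p of 0.00269.

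Across roles, the medians of the log2 fold change were close together, from 0.068 for the clamp and its loader to 0.139 for helicase activation. In between lay MCM2-7 at 0.078, single-strand binding and flap joining at 0.08, the polymerases at 0.095, chromatin assembly at 0.096, GINS at 0.098, the regulators at 0.109, licensing at 0.125 and nucleotide supply at 0.135. Each median rests on only 2 to 6 genes. Genes within a role differed more, from -0.236 to 0.212 in MCM2-7 and from -0.022 to 0.241 in the regulators. The transcript levels of the members spanned a wider range than their differences. Mean levels ran from 3.37 FPKM (GINS3) to 137 FPKM (PCNA) with drug, and from 3.03 FPKM (GINS3) to 139 FPKM (MCM3) in control, with medians of 16.5 and 14.7 FPKM. PCNA was thus highest with drug and MCM3 was highest in control. SLBP (70.5 and 65.8 FPKM), MCM7 (61.3 and 57.8 FPKM) and MCM6 (59.9 and 58.4 FPKM) followed in mean level with drug and in control, and LIG1, CLSPN and the GINS genes were among the lowest. Within MCM2-7, both drug libraries had more MCM7 than MCM6, while in control the libraries of MCM6 lay between those of MCM7. The ratio of the highest subunit, MCM3, to the lowest, MCM5, was 9.21 with drug and 12.7 in control on average. Levels of different genes depend on the exon length used, and for 18 of 39 members the length implied by FPKM was within 1% of GENCODE 29. For 5 members the implied length exceeded that of GENCODE 29 by more than 1.5 times: 15548 bases against 6336 for POLA1, 8018 against 4068 for GINS1, 9592 against 5411 for CLSPN, 11349 against 6576 for LIG1 and 9154 against 5323 for RRM2. Their levels relative to other genes are thus lower than annotated lengths would give, including the low places of LIG1, CLSPN and GINS1. The length cancels in the ratio of drug to control FPKM of a gene.

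**Figure D3:**
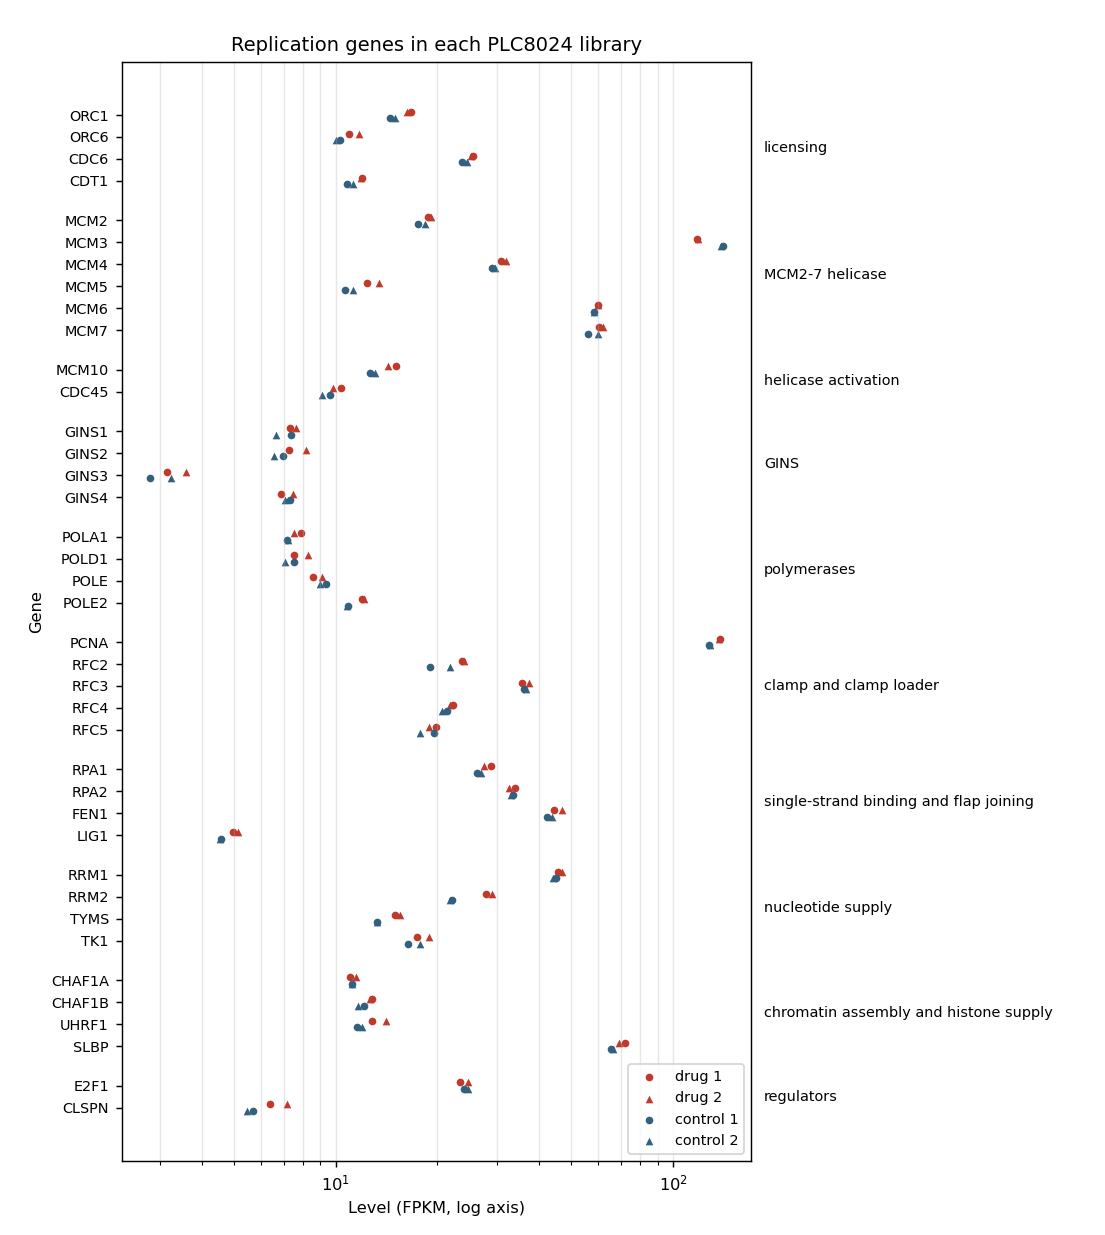
FPKM of the 39 replication genes (x axis, log scale) ordered by role (y axis) in drug libraries 1 and 2 (red) and control libraries 1 and 2 (blue), circles for library 1 and triangles for library 2. Most red points sit just right of the blue ones, MCM3 is reversed, and GINS3 at 3.15 and 3.59 FPKM with drug is the lowest.

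Other replication genes, chosen for their role with earlier results of these data known, were read from the same fit. Of 56 such genes, 55 were in the table and 52 exceeded 1 FPKM. With limma 6 of them were higher (11.5%, against 7.78% of all genes tested) and 1 was lower (1.92%, against 6.02%). The median log2 fold change of these genes was 0.071. E2F8, a repressor among the E2F factors, had 8.19 and 8.35 FPKM in the drug libraries, against 5.61 and 5.89 FPKM in the control libraries, and passed under all 12 alternatives (log2 fold change 0.46, limma adjusted p = 0.00648). CCNE1, the cyclin that drives entry into S phase, had 11.8 and 11.4 FPKM in the drug libraries, against 9.34 and 9.12 FPKM in the control libraries (log2 fold change 0.30, limma adjusted p = 0.0132). ORC5, PRIM2, POLE4 and ATRIP, of the origin complex, primase, polymerase epsilon and checkpoint, were the others called higher, with log2 fold changes of 0.18 to 0.30. ASF1A, a histone chaperone that hands histones to the assembly factor, was lower, with 23.5 and 23.4 FPKM in the drug libraries, against 27.5 and 27.3 FPKM in the control libraries (log2 fold change -0.21, limma adjusted p = 0.0131). The 6 higher calls became 1 without drug replicate 1, 2 without drug replicate 2, 1 without control replicate 1 and 1 without control replicate 2, and the ASF1A call was lost whichever library was left out. POLA2, the partner of POLA1, was below the minimum, with 0.418 and 0.489 FPKM in the drug libraries, against 0.312 and 0.308 FPKM in the control libraries.

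Mitotic genes are transcribed later in the cycle than replication genes. Of 40 listed, chosen with earlier results of these data known, 37 were tested. With limma 26 were higher (70.3%, against 7.78% of all genes tested) and none lower (against 6.02%). Their median log2 fold change was 0.231. A single mitotic gene had an unadjusted limma p under 0.05 in the lower direction, AURKA, a mitotic kinase named here after its values were seen, and edgeR and DESeq2 called it lower. ESPL1, which encodes separase, had 4.79 and 4.77 FPKM in the drug libraries, against 2.44 and 2.29 FPKM in the control libraries (log2 fold change 0.78, limma adjusted p = 0.0032), and KIF4A, a chromosome motor, had 48.2 and 46.8 FPKM in the drug libraries, against 33.6 and 36 FPKM in the control libraries. NDC80, KIF20A, BUB1B and ANLN, of kinetochore, spindle, checkpoint and cytokinesis, had the next largest log2 fold changes, 0.30 to 0.41. EdgeR called 25 of the list higher and DESeq2 23, where they called 8.37% and 6.89% of all genes tested higher. The limma count was 22 with TMM scaling and 11 with no filter on low values. That count also fell whichever library was left out, as did the count over all genes. The list median was 0.191 with TMM scaling. It was 0.233 without drug replicate 1, 0.235 without drug replicate 2, 0.208 without control replicate 1 and 0.245 without control replicate 2. The difference between the lists was not tested.

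Of the 15 tested cell cycle control genes, 1 was higher with limma (6.67%, against 7.78% of all genes tested) and 2 were lower (13.3%, against 6.02%). EdgeR called 2 higher and 3 lower, where it called 8.37% and 11.0% of all genes tested. DESeq2 called 1 higher and 3 lower, where it called 6.89% and 9.88% of all genes tested. LIN9, a subunit of the complex that switches cell cycle genes, had 8.19 and 8.36 FPKM in the drug libraries, against 6.75 and 7.01 FPKM in the control libraries. CDKN1A, the inhibitor p21 that also binds PCNA, had 2.45 and 2.81 FPKM in the drug libraries, against 4.6 and 4.23 FPKM in the control libraries. CCND1, the cyclin D1 gene of the G1 phase, had 36.4 and 37.1 FPKM in the drug libraries, against 42.9 and 43.5 FPKM in the control libraries. SKP2, a ubiquitin ligase subunit that targets p27, was named after its values were seen: it had 3.65 and 3.74 FPKM in the drug libraries, against 4.3 and 4.39 FPKM in the control libraries, missed the threshold with limma (adjusted p = 0.0637) and was called lower by edgeR (adjusted p = 0.000685) and DESeq2 (adjusted p = 0.000125). DTL, also named after its values were seen, was the further gene called higher by edgeR (adjusted p = 0.0374). Dropping any library ended the calls of LIN9 and CCND1, and that of CDKN1A ended without control replicate 1 (limma adjusted p = 0.0771) or control replicate 2 (limma adjusted p = 0.0601).

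**Figure D4:**
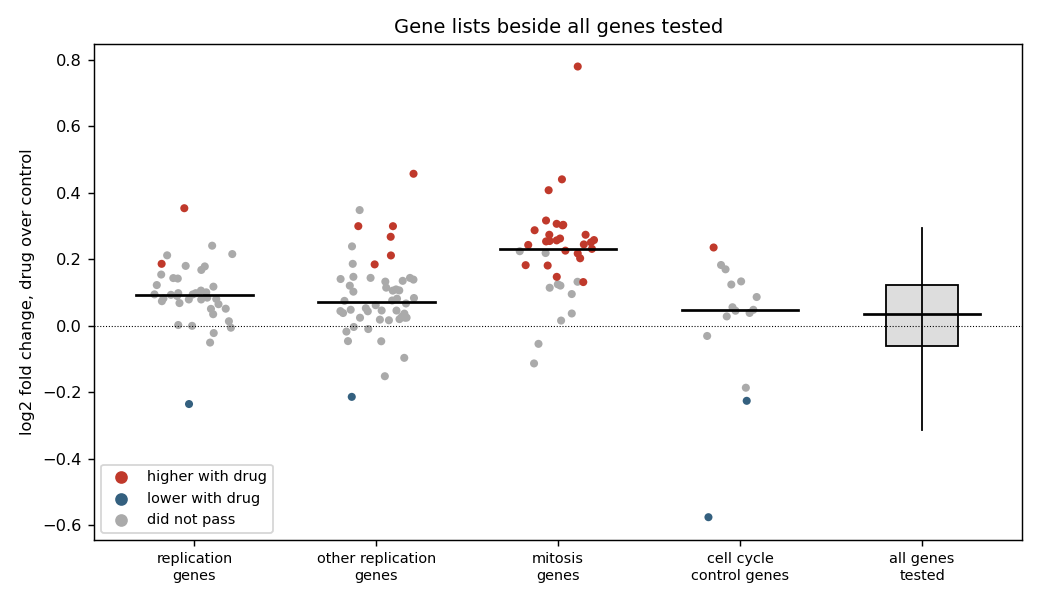
Log2 fold change of drug over control on the FPKM + 1 scale (y axis) for genes of each list (x axis): points are genes, spread sideways for visibility, and horizontal lines are list medians. The box for all genes tested spans the 25th to 75th percentiles (-0.06 to 0.123), with lines to the 5th and 95th (-0.314 to 0.295); the replication genes have a median of 0.093 and the mitosis genes 0.231.

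Promoters were compared because replication and mitosis genes are known to carry different control elements: E2F sites in S phase genes, and the CHR element, bound by the DREAM and MuvB complexes, in mitotic genes. Windows of 300 bases, from 250 before to 50 after the first listed RefSeq start (GRCh38.p14), were found for 35 of the 39 members, the others being MCM4, MCM5, GINS4 and RPA2. An E2F site was taken as TTTCCCGC, TTTGGCGC, TTTCGCGC or TTTGCCGC, the CHR as TTTGAA, the CCAAT box as CCAAT and the GC box as GGGCGG, on both strands, with overlapping matches each counted. The stretches shown are those of MCM3, the gene that fell, of MCM6 and POLA1, which carry E2F matches, of RRM1, the one member with a CHR match, and of ESPL1, a mitotic gene for contrast. Each reads 5′ to 3′ on the gene's strand and ends where an annotated exon begins or just before the RefSeq start, and capitals mark the matches.
MCM3, chr6:52284882-52284992, minus strand, an E2F match (TTTCCCGC) and a CCAAT box: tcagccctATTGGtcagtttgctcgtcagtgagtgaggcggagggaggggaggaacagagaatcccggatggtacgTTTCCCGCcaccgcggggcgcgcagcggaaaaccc
MCM6, chr2:135876444-135876693, minus strand, overlapping pairs of E2F matches, CCAAT boxes and GC boxes: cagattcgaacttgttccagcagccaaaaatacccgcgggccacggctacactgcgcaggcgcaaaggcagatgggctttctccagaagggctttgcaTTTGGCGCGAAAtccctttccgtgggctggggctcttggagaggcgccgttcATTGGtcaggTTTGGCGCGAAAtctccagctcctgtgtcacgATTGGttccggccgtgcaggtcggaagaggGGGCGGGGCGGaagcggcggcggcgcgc
POLA1, chrX:24693668-24693917, plus strand, an E2F match, a GC box and a CCAAT box: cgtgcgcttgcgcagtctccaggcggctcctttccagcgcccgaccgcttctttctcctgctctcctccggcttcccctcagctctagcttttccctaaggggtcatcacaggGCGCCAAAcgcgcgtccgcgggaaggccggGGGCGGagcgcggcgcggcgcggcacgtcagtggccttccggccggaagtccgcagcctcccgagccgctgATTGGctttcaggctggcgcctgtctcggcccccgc
RRM1, chr11:4094435-4094684, plus strand, a CHR match, a GC box and a CCAAT box: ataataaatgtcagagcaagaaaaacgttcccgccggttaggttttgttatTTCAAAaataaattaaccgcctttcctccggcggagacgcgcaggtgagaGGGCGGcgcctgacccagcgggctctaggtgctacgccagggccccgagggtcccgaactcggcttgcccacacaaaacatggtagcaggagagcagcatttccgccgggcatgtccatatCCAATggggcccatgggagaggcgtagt
ESPL1, chr12:53268049-53268298, plus strand, a CCAAT box and a CHR match: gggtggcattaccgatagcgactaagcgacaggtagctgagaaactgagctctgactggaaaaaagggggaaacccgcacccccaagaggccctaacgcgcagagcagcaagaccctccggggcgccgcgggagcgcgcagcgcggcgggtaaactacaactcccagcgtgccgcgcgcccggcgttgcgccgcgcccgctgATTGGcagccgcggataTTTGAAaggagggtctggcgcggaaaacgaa

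In the MCM6 stretch the same 12 letters, TTTGGCGCGAAA, occur at 2 places, and each holds matches on both strands. Of the 35 member windows 19 had an E2F match (54.3%), against 24.4% of 45 other replication genes, 9.09% of 33 mitotic genes, 5.71% of 8211 tested genes and 3.33% of all 27305 promoters. A CHR match was found in 1 of the 35 members (2.86%, RRM1), against 8.89% of other replication genes, 69.7% of mitotic genes, 9.34% of tested genes and 15.4% of all promoters. CCAAT boxes were found in 60.0% of members, 57.8% of other replication genes, 78.8% of mitotic genes and 37.6% of tested genes. For GC boxes the shares, in the same order, were 80.0%, 75.6%, 72.7% and 71.7%. Of the members that passed, MCM3 had 2 E2F matches and 3 CCAAT boxes in its window, TYMS had 1 E2F match, and RRM2 had 3 CCAAT boxes and no match to the E2F words used. The windows of RRM2, TYMS and MCM7 lie inside exons of longer annotated transcripts, so they may hold transcribed bases. They are counted in the shares given here. The median log2 fold change was 0.09 in the 19 members with an E2F match (range -0.236 to 0.241) and 0.095 in the 16 without (range 0.013 to 0.354). MCM3, POLE and E2F1, the members with a window whose log2 fold change was below 0, each had a match, and this difference was not tested. Among all tested genes 7.68% of those with an E2F match and 8.58% of those without were higher with drug, and for the CHR these shares were 11.6% and 8.21%. A match is a run of letters and not a measured binding site, and what the matches mean for the response was not tested.

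**Figure D5:**
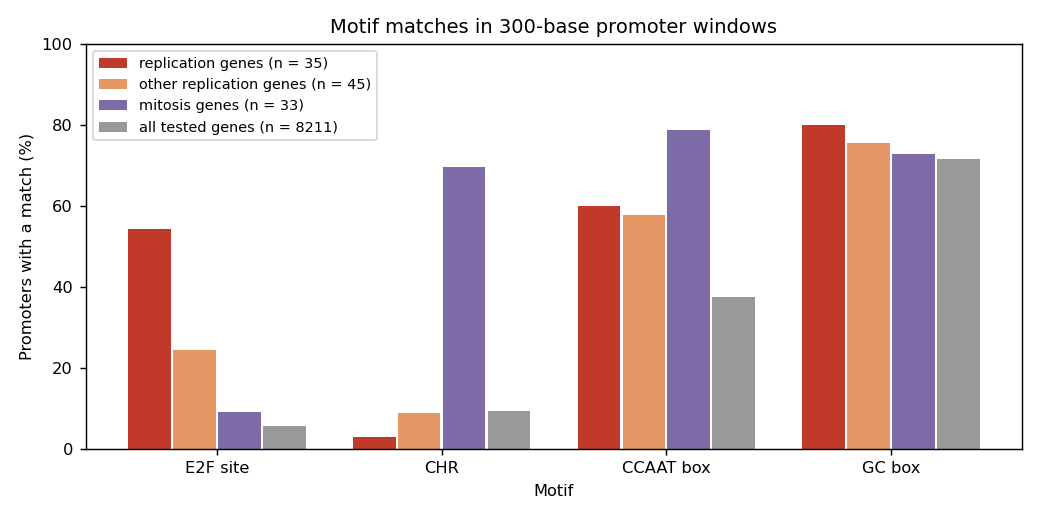
Percent of promoter windows of 300 bases with at least 1 match (y axis) for each motif (x axis) in the replication genes (n = 35), other replication genes (n = 45), mitosis genes (n = 33) and all tested genes with a window (n = 8211). E2F matches are in 54.3% of replication gene windows and 9.09% of mitosis gene windows, and CHR matches in 2.86% and 69.7%.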

How the data were processed

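Per the labels, trizol was used for RNA extraction and a stranded TruSeq mRNA kit for the libraries. Reads were demultiplexed with bcl2fastq and hg38 was used, per the submitters' processing notes. The sources used here do not give the aligner, counter, annotation or strand setting. The 4 library columns are FPKM values deposited by the authors, a unit inferred from the numbers themselves. The group columns are mean normalized read counts, a signal the authors deposited. The log2 fold changes, p-values and adjusted p-values in the table are the authors' own, per the file headers.

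The 11227 genes whose mean reached 1 FPKM in either group entered limma 3.58.1 with a trend, on log2(FPKM + 1). P-values were adjusted over all of them (Benjamini-Hochberg), with a threshold of 0.05. Whole reads were recovered from FPKM and group means (100% of values came out whole, with a tolerance of 0.1 read) for edgeR 4.0.16 and DESeq2 1.42.0. Arms left with 1 library in leave-one-out fits were assumed to vary like the other arm. Further alternatives were pseudocounts of 0.1 and 0.01, no filter, TMM or median scaling, and a replicate block. The members and lists were chosen with earlier results of these data known. Of the lists, genes that passed limma were named, at most 6 in each direction by size of change. POLA2, AURKA, SAMHD1, SKP2 and DTL were named outside this rule, after their values were seen. Promoter sequences are RefSeq's (GRCh38.p14) and gene positions GENCODE 29's. Only limma was tried on simulated data, and no result given here rests on that trial. Software was R 4.3.3 and Python 3.11.15 (matplotlib 3.10.9, pandas 2.3.3, numpy 2.4.6). Depth of 28526098 to 40279560 reads and 2 libraries a group limit the precision.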

Additional observations from a re-analysis of the deposited data

How the results depend on the processing

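The counts of called genes depended on the settings more than the fold changes did. Of the 468 values of single members under the 12 alternatives, 433 kept their direction and side of the threshold, 9 lost a call (8 of TYMS, 1 of MCM3), 6 gained one, and 20 changed sign without passing in either direction. Leaving out 1 library with limma gave 115 to 221 genes higher and 188 to 274 lower, 1 to 2 members higher and 0 to 1 lower, and 1 to 2 other replication genes higher and 0 lower. With no filter on low values (limma), 170 genes were higher and 214 lower, with 1 member and 1 other replication gene higher. With the replicate block, 474 genes and 1 member were higher. Same-numbered libraries deviated with a correlation of 0.028, and no other member count changed under the block. A single correlation from 2 libraries a group cannot settle whether same-numbered libraries were paired. With TMM scaling 540 genes and 3 other replication genes were higher and the member median was 0.054; with median scaling these counts were 565 and 3. EdgeR called 1233 genes lower, 4 members higher and 2 other replication genes lower (ASF1A and SAMHD1, with SAMHD1 named after its values were seen), with a member median of 0.056. DESeq2 called 1109 genes and 2 other replication genes lower, with a member median of 0.056. The causes were not tested.

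Signs changed for members close to 0. MCM6 was -0.0056 with TMM scaling and edgeR and -0.0057 with DESeq2. RFC3 was -0.0377 with TMM scaling, -0.0263 with median scaling, -0.0387 with edgeR and -0.039 with DESeq2. CHAF1A was -0.0242 with TMM scaling, -0.015 with median scaling, -0.0262 with edgeR and -0.0264 with DESeq2. With 1 library left out, the log2 fold change ran from -0.059 to 0.0472 for GINS4, -0.0301 to 0.0344 for RFC3, -0.0146 to 0.117 for RFC5, -0.0308 to 0.0301 for RPA2, -0.0126 to 0.0395 for CHAF1A and -0.0633 to 0.0192 for E2F1.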
